A study of Mus musculus with 2 samples.

Results

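Mir128-1, Mir128-2, Mir129-1, Mir129-2, Mir138-1, Mir138-2, Mir218-1 and Mir218-2 are the 8 mouse genes that encode miR-128, miR-129, miR-138 and miR-218, 4 microRNAs (miRNAs) known from neurons. Each of these miRNAs is made at 2 places in the genome. The genes were chosen by symbol in GENCODE release M21, which named all 2202 miRNA genes of the count tables, and all 8 were in the tables. Small RNA (the labels put the size range at under 30, with no unit) was sequenced from hippocampus of wild-type male C57BL/6 mice (strain B6NCrl) at 6 months of age. There was 1 group of 2 libraries, numbered biological replicates 1 and 2, with no treatment and no other tissue, so enrichment in neurons could not be tested. The labels give both libraries the same donor identifier, leave their field for sex as not collected and do not say which layer of the hippocampus was taken. The spread between the libraries may therefore be technical.

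A miRNA is cut from a folded precursor, the hairpin, which has a 5′ arm (5p) and a 3′ arm (3p). Mature RNA from an arm guides the silencing machinery to messenger RNAs, mainly through its seed, bases 2 to 8. When the same mature arm is made at 2 loci, the short reads of that arm do not tell which locus they came from, whereas the opposite arm usually differs between the loci. In neurons, miR-128 restrains excitability in mice, miR-138 limits the size of dendritic spines in cultured rat hippocampal neurons, miR-129 has been tied to synaptic downscaling in rat hippocampal neurons, and miR-218 is best known from mouse motor neurons.

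The mature arms that both loci of a miRNA share come first, since they carry the seed by which the miRNA acts. Sequences are from RefSeq (GRCm38.p6), which matched 8 of 8 hairpins and gave 15 mature entries with 11 distinct names. Capitals mark the seed.
mmu-miR-128-3p: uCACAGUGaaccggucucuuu
mmu-miR-129-5p: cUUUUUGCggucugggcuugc
mmu-miR-138-5p: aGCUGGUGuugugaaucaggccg
mmu-miR-218-5p: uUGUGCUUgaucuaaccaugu
Each of these 4 arms was found in 2 annotated hairpins, those of its own pair. The 4 seeds differ from one another. Of all other mouse arms in the table, only miR-7002-3p had one of these seeds, that of miR-218-5p, and its gene Mir7002 had 3 counts in replicate 1 and 0 in replicate 2.

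The opposite arms name the locus, and are shown because reads of these arms can be assigned to 1 gene. Capitals again mark the seed.
mmu-miR-128-1-5p: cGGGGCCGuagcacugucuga
mmu-miR-128-2-5p: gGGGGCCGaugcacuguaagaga
mmu-miR-138-1-3p: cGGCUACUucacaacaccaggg
mmu-miR-138-2-3p: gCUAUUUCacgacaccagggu
mmu-miR-218-1-3p: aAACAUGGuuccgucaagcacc
mmu-miR-218-2-3p: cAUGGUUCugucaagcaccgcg
The 5p arms of the miR-128 loci have the same seed and differ at 5 of 21 aligned bases. The 3p arms of the miR-138 loci differ at 2 of 20 aligned bases and those of the miR-218 loci at 1 of 19. The annotated ends of these 3p arms are shifted against each other, and neither of these 2 pairs of arms shares a seed. For miR-138, a differing base also lies within the seeds.

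The miR-129 loci are the closest to each other on the locus-specific side. The table lists mmu-miR-129-2-3p for Mir129-2, and the same place of the Mir129-1 hairpin (bases 49 to 70, chr6:29022667-29022688, plus strand) differs from it at 1 of 22 bases, in capitals here.
Mir129-1, bases 49 to 70: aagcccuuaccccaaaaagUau
mmu-miR-129-2-3p: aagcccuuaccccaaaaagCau
A read of this arm that ends before position 20 is the same at both loci.

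The whole hairpins show how far the identity reaches beyond the arm. Capitals mark every stretch of at least 15 bases that stands in both hairpins of a pair.
Mir128-1: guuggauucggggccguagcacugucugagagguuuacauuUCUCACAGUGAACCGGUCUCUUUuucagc
Mir128-2: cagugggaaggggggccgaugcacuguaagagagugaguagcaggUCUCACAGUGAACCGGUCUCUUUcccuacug
Mir129-1: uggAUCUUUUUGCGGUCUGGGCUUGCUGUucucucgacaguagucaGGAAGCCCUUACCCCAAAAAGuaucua
Mir129-2: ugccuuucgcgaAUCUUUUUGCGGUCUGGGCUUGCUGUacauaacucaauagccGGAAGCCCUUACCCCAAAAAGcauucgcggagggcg
Mir138-1: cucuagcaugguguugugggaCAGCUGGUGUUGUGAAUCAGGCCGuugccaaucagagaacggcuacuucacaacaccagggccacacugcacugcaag
Mir138-2: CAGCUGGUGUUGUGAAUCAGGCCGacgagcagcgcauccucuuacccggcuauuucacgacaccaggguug
Mir218-1: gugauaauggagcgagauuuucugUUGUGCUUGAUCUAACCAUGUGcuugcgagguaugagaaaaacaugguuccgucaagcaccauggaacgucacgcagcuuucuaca
Mir218-2: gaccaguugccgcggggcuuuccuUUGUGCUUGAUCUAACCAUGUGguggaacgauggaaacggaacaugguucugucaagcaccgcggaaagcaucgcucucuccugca
The shared stretch was 23 bases for miR-128, 24 for miR-138 and 22 for miR-218, which is the shared arm with 2, 1 and 1 further bases. The miR-128 and miR-138 hairpins part at the base after the 3′ end of the annotated shared arm, and the miR-218 hairpins 1 base later. The miR-129 hairpins shared 2 stretches, of 26 and 21 bases, which cover the 5p arm with 2 bases before and 3 after it and most of the 3p arm. Of the windows of 20 bases in each hairpin, 83.3% (Mir129-1), 87.3% (Mir129-2), 90.4% (Mir138-2), 92.2% (Mir128-1), 93.0% (Mir128-2), 93.8% (Mir138-1) and 96.7% (both miR-218 hairpins) stood in no other hairpin of the table. The genome outside annotated hairpins was not searched.

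**Figure D1:**
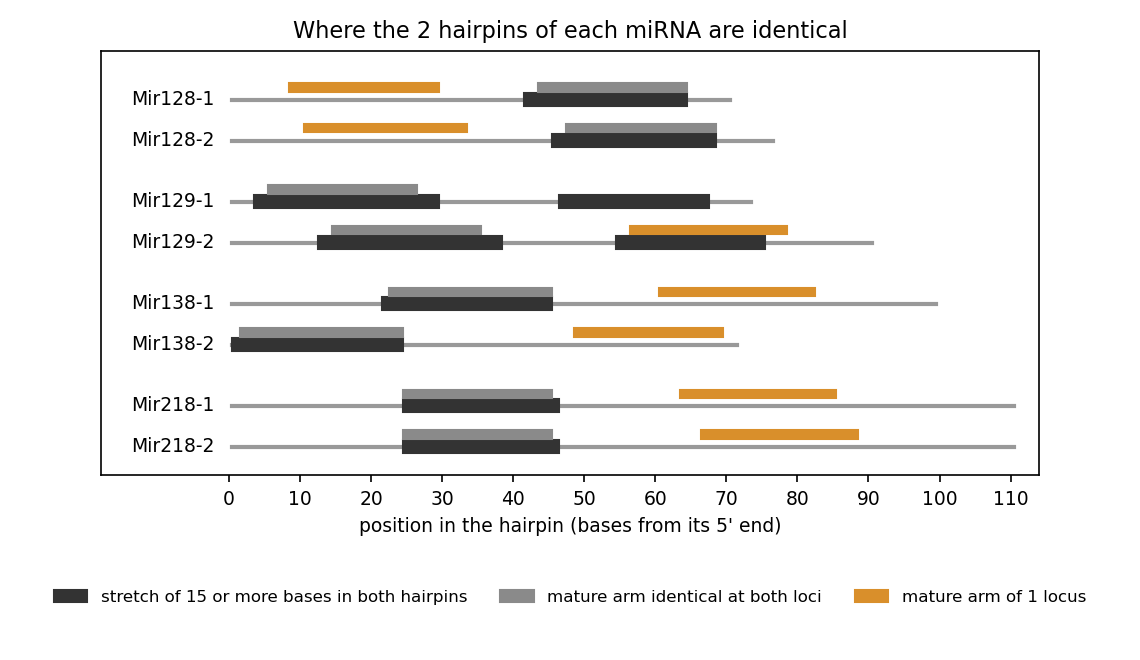
Map of the 8 hairpins, with position in bases from the 5′ end on the x axis. Black blocks are stretches of 15 or more bases that stand in both hairpins of a pair, grey bars are mature arms identical at both loci and orange bars are mature arms of 1 locus; miR-129 has 2 shared stretches and each other miRNA has 1.

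The deposited values are raw counts per hairpin gene, which do not separate the arms, and reads aligned to more than 1 place stand in no gene's count. Such reads made up 43.8% of 11106392 reads in replicate 1 (exact 95% binomial interval 43.7 to 43.8%) and 45.7% of 12627039 reads in replicate 2 (45.6 to 45.7%). How many of them belong to the shared arms above cannot be read from the tables. The counts below are therefore those of reads that could be placed at 1 of the 2 loci, not the full level of the miRNA. They were scaled to CPM (counts per 1e6 counts) over the 4247092 (replicate 1) and 5041568 (replicate 2) counts on miRNA genes. The floor, 3 counts (what a count of 0 still allows), equals 0.706 CPM in replicate 1 and 0.595 CPM in replicate 2. A miRNA read covers an arm and not a stretch that grows with the hairpin, so levels were compared as counts per hairpin. A shared-arm read that runs past the shared stretch can be placed at 1 locus by its last bases. The first base past the stretch is u in Mir128-1 and c in Mir128-2, and u in Mir138-1 and a in Mir138-2. How much of each locus ratio below comes from such 3′ ends, and not from the level of the locus, was not tested. Intervals and floors cover counting error only.

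All 8 genes reached 10 CPM in both libraries, as did 302 of the 2202 genes in all. Together they held 1.80% of the counts on miRNA genes in replicate 1 and 1.72% in replicate 2 (1.76% ± 0.0534; SD, n = 2). The miR-128 pair contributed 7873 ± 483 CPM and the miR-138 pair 6230 ± 231 CPM. The miR-129 pair contributed 3012 ± 258 CPM and the miR-218 pair 485 ± 23.5 CPM (SD, n = 2 each). By the sum of both loci these were ranks 1, 2, 4 and 11 among the 43 miRNA names in the tables that have exactly 2 numbered loci. The third was Mir219a with 5048 CPM, nearly all of it from Mir219a-2. Levels of the single genes, per hairpin, ran in the order Mir128-1, Mir138-1, Mir138-2, Mir129-2, Mir128-2, Mir129-1, Mir218-2 and Mir218-1. Neighbours in this order had ranges over the libraries that did not overlap, except Mir129-1 and Mir218-2, whose order turned round in replicate 2.

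**Figure D2:**
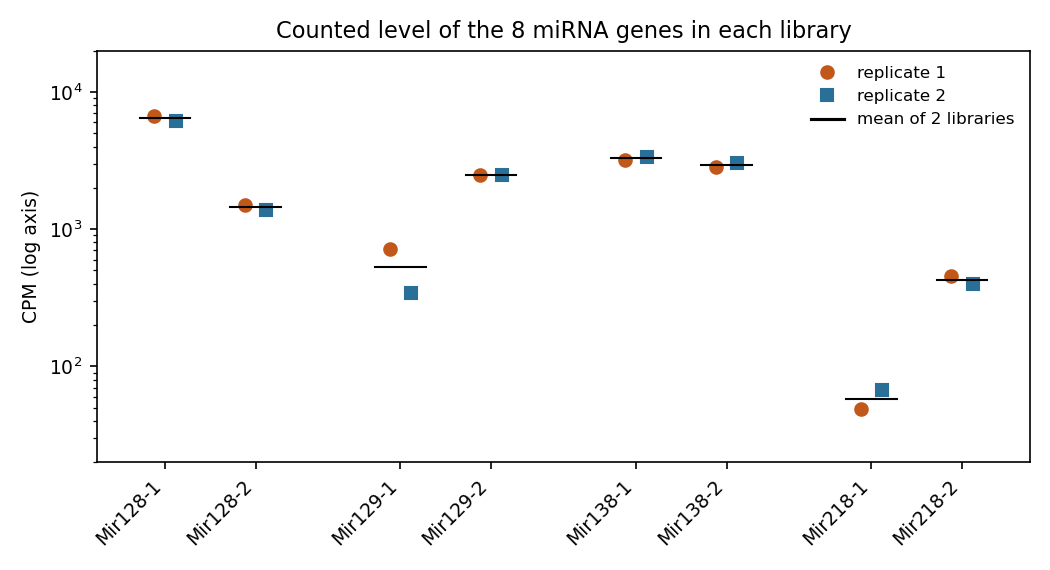
Level of each gene in CPM (log axis) in replicate 1 (circles) and replicate 2 (squares), with the mean of both libraries as a bar. The highest gene is Mir128-1 at 6711 and 6155 CPM and the lowest is Mir218-1 at 48.7 and 67.4 CPM, and Mir129-1 has the widest gap between the libraries.

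The first question was how the counts divide between the 2 loci of miR-128. Mir128-1 (ENSMUSG00000065520.2, chr1:128202361-128202430, plus strand, mm10) had 28501 counts in replicate 1 and 31032 in replicate 2. Mir128-2 (ENSMUSG00000065441.2, chr9:112118636-112118711, minus strand) had 6390 counts in replicate 1 and 6939 in replicate 2. The chromosome 1 locus was thus the higher one in both libraries, at 6433 ± 393 CPM against 1440 ± 90.7 CPM for the chromosome 9 locus (SD, n = 2). Its share of the pair's counts was 81.7% in each library, with an exact 95% interval of 81.3 to 82.1% in both. The log2 ratio of locus 1 to locus 2 was 2.16 ± 0.00271 (SD, n = 2), a 4.47-fold difference that was far larger than its spread between the libraries. Set against each other, the locus ratios of replicate 1 and replicate 2 gave an odds ratio of 0.997 (exact 95% interval 0.960 to 1.04), so no shift between the loci was detectable at this depth.

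Both miR-128 genes lie in introns of protein-coding genes on their own strand. Mir128-1 is in R3hdm1, which encodes a protein with an R3H domain, a nucleic acid binding fold, and stands in intron 19 (14107 bases) of its longest coding transcript. Mir128-2 is in Arpp21, which encodes a cyclic AMP-regulated phosphoprotein of neurons, also in intron 19 (51873 bases) of the longest coding transcript. No transcript of either host has an exon over the hairpin. Host messenger RNA was not measured in these libraries of short RNA, so host and miRNA levels could not be compared.

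The miR-138 loci were close to balance. Mir138-1 (ENSMUSG00000065414.1, chr9:122682876-122682974, plus strand) had 13656 counts in replicate 1 and 16819 in replicate 2, or 3276 ± 85.3 CPM (SD, n = 2). Mir138-2 (ENSMUSG00000065512.3, chr8:94324311-94324381, plus strand) had 12110 and 15415 counts, or 2954 ± 146 CPM. The chromosome 9 locus held 53.0% of the pair's counts in replicate 1 and 52.2% in replicate 2, with exact 95% intervals of 52.4 to 53.6% and 51.6 to 52.7%, slightly above an even split in both. The log2 ratio of locus 1 to locus 2 was 0.15 ± 0.0336 (SD, n = 2), a 1.11-fold difference. It is larger than its spread between the libraries, but counted per base of the hairpins, of 99 and 71 bases, it is −0.33. The odds ratio between the libraries was 1.03 (exact 95% interval 1.00 to 1.07).

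Neither miR-138 gene lies in a protein-coding gene. Mir138-1 overlaps an exon of Gm47135, annotated as a transcribed unprocessed pseudogene on the same strand, in 1 of its 2 transcripts, and the nearest protein-coding gene, Topaz1, is 64.4 kb away. Mir138-2 overlaps the single exon of the long noncoding RNA gene C78859 on the same strand, 4.82 kb from the kidney salt transporter gene Slc12a3. Both hairpins are thus annotated as part of an exon, unlike those of miR-128 and miR-218.

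The miR-129 loci differed strongly, and by an amount that changed between the libraries. Mir129-1 (ENSMUSG00000065469.1, chr6:29022619-29022691, plus strand) had 3022 counts in replicate 1 and 1713 in replicate 2, which is 712 and 340 CPM. Mir129-2 (ENSMUSG00000065511.1, chr2:94241364-94241453, minus strand) had 10545 and 12552 counts, which is 2483 and 2490 CPM. The chromosome 2 locus was the higher one in both libraries, and its level barely moved while that of the chromosome 6 locus did. Mir129-1 held 22.3% of the pair's counts in replicate 1 and 12.0% in replicate 2, with exact 95% intervals of 21.6 to 23.0% and 11.5 to 12.6%. The log2 ratio of locus 1 to locus 2 was −2.34 ± 0.757 (SD, n = 2), from −1.80 in replicate 1 and −2.87 in replicate 2. The odds ratio between the libraries was 2.10 (exact 95% interval 1.97 to 2.24), which is beyond counting error.

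Both miR-129 genes lie in long noncoding RNA genes on the same strand. Mir129-1 overlaps an exon of Gm3294 and stands 37.5 kb from Lep, the leptin gene. Mir129-2 stands in an intron of Mir670hg in 3 of its 7 transcripts and over an exon in none. The other miRNA genes inside Mir670hg were much lower, Mir670 with 26 counts in replicate 1 and 25 in replicate 2 (6.12 and 4.96 CPM), and Gm23630 with 0 in both. On the opposite strand, Mir129b is annotated within Mir129-2. On that opposite strand, Mir129-2 had 0 counts in replicate 1 and 1 in replicate 2, under the floor. A count that ignores strand leaves 4 and 12 counts for Mir129-2, so its value rests on the strand-specific column.

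The miR-218 pair was the lowest of the 4 and, by the mean log2 locus ratio, the most uneven, although miR-129 was more uneven in replicate 2. Mir218-1 (ENSMUSG00000065603.1, chr5:48223942-48224051, plus strand) had 207 counts in replicate 1 and 340 in replicate 2, or 48.7 and 67.4 CPM. Mir218-2 (ENSMUSG00000065583.1, chr11:35616816-35616925, plus strand) had 1923 and 2021 counts, or 453 and 401 CPM. The chromosome 11 locus was 9.29 times as high in replicate 1 and 5.94 times as high in replicate 2. Mir218-1 held 9.72% of the pair's counts in replicate 1 and 14.4% in replicate 2, with exact 95% intervals of 8.49 to 11.1% and 13.0 to 15.9%. The log2 ratio of locus 1 to locus 2 was −2.89 ± 0.455 (SD, n = 2). The odds ratio between the libraries was 0.640 (exact 95% interval 0.530 to 0.772), again beyond counting error, and the loci moved in opposite directions.

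The hosts of miR-218 are paralogues. Mir218-1 lies in Slit2 and Mir218-2 in Slit3, which encode secreted ligands of Robo receptors that steer growing axons. Each hairpin stands in intron 14 of the longest coding transcript of its host, and both of these transcripts have 36 exons. The intron is 4572 bases long in Slit2 and 9571 bases in Slit3. Mir218-1 lies in an intron in 7 of 23 Slit2 transcripts and Mir218-2 in 1 of 4 Slit3 transcripts, with no exon over either hairpin and the other transcripts not reaching over it.

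**Figure D3:**
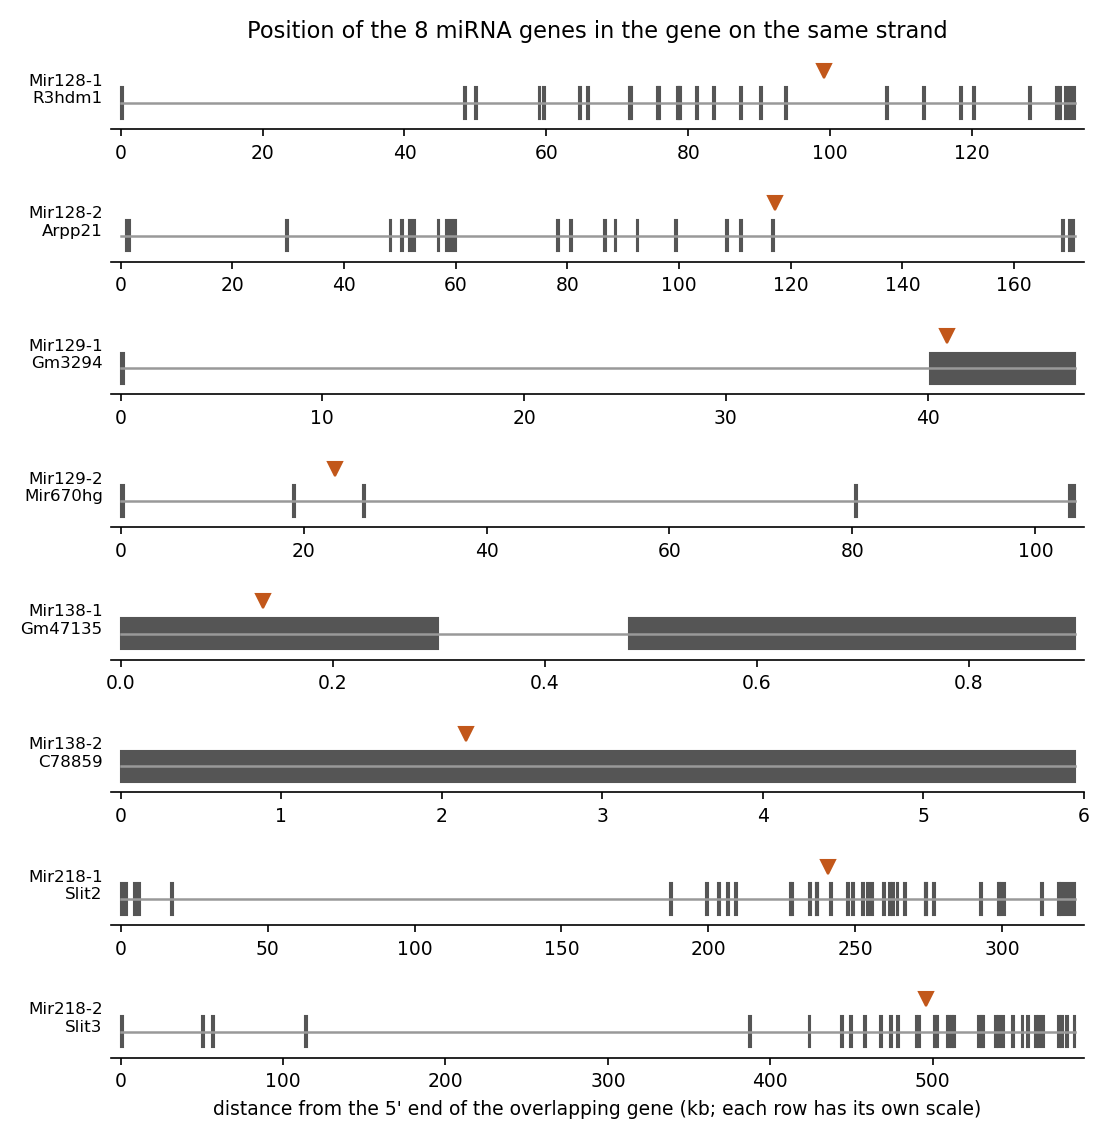
Position of each miRNA gene (triangle) in the gene that overlaps it on the same strand, with exons of that gene's longest transcript as blocks and the distance from its 5′ end in kb on the x axis of each row. The miR-128 and miR-218 genes and Mir129-2 stand between exons; Mir129-1 and both miR-138 genes stand over an exon.

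Across the 4 miRNAs, locus 1 was the higher one for miR-128 and miR-138 and locus 2 for miR-129 and miR-218, in both libraries. With 2 libraries a sign-flip permutation of a locus ratio cannot give a two-sided p below 0.5, so no p-value is given for these ratios. As a background, the other 39 names with exactly 2 numbered loci were measured in the same way. Both loci reached 10 CPM in both libraries for 12 of them, 1 locus for 6 and neither for 21, against both loci for all 4 of the neuronal pairs. The 4 pairs were chosen with earlier results of these data known, so this contrast is no result about them. Of 36 two-locus names with mature sequences for both loci in RefSeq, 35 share an identical mature arm, so the other pairs carry the same limit on assigning reads. Among the 12, the loci differed by a median of 1.32 on the log2 scale (2.49-fold), over a range of 0.12 to 6.12, and the same locus was the higher one in both libraries for 11.

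Set among all 16 pairs with both loci at 10 CPM by the mean log2 locus ratio of both libraries, miR-218 had the fifth largest imbalance, miR-129 the sixth, miR-128 the eighth and miR-138 the second smallest. The order differed within single libraries: miR-128 was more uneven than miR-129 in replicate 1, and miR-129 was more uneven than miR-218 in replicate 2. The change of the log2 locus ratio between the libraries was 0.0038 for miR-128, the smallest of the 16 pairs, with 0.0057 for Mirlet7f close to it. Both changes lie within counting error, so the order of these pairs is not settled. The change was 0.05 for miR-138, 0.64 for miR-218 and 1.07 for miR-129. The 12 other pairs had a median change of 0.23 and ranged from 0.0057 for Mirlet7f to 1.23 for Mir181a. The 10 CPM limit leaves out pairs with a locus that is low in either library. For the 6 names with 1 locus at 10 CPM, the change ran from 0.09 to 4.25, so the range and ranks hold among the 16 pairs only. The 2 libraries are the same for all pairs, and these ranks are a description with no test.

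**Figure D4:**
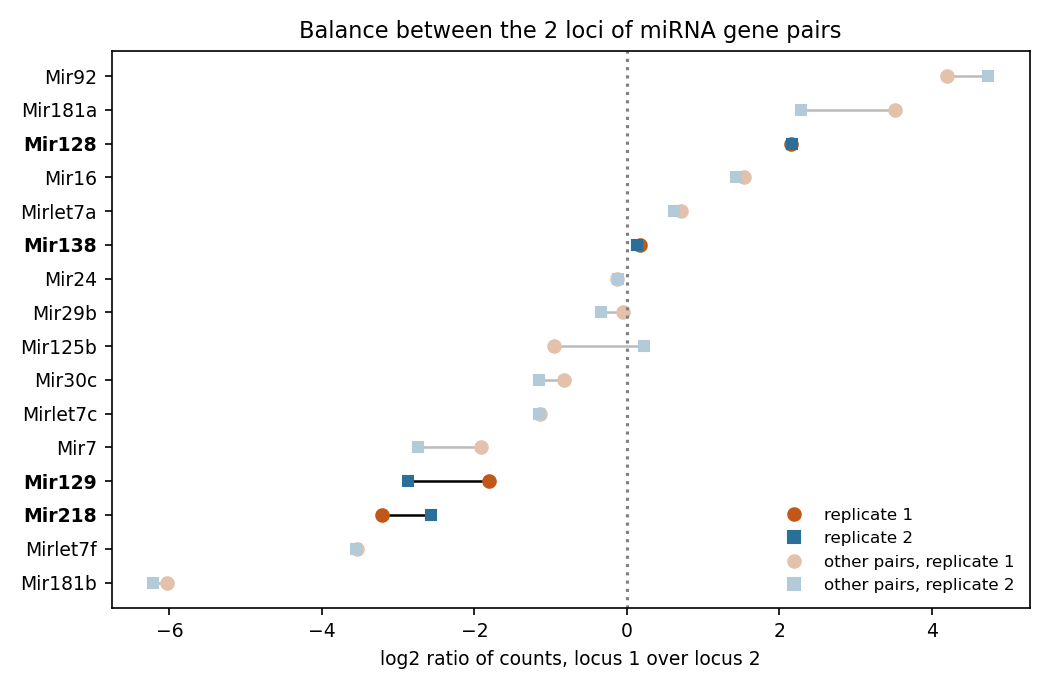
Log2 ratio of counts at locus 1 over locus 2 for the 16 miRNA names with both loci at 10 CPM or more, in replicate 1 (circles) and replicate 2 (squares), with the 4 neuronal pairs in full colour. The miR-128 points lie on each other at 2.16, those of miR-138 lie near 0, and those of miR-129 and miR-218 lie between −1.80 and −3.21.

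The second question was whether the libraries differed at these genes beyond counting error. For 522 genes with at least 10 counts in all, the split of counts between the libraries was set against their sizes by an exact binomial test (two-sided), and 51.0% of them passed at an adjusted p of 0.05. In replicate 1, 22.8% of the tested genes were higher and 28.2% lower, a balance that depends on the scaling. Of the 8 genes, 4 were called higher in replicate 1 and 3 lower, and 1 was not called. At counts this deep the test calls small differences, and it compares the reads of 2 libraries, not conditions. The median log2 ratio of replicate 1 to replicate 2 was 0.06 over the 8 genes and −0.09 over all genes tested. The sizes say more than the calls, since the median gene among the 302 detected differed by 0.36 on the log2 scale between the libraries.

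Mir129-1 stood apart from the other 7. It was higher in replicate 1 by a log2 ratio of 1.07 (exact 95% interval 0.98 to 1.15, adjusted p = 6.98e-137 by the exact binomial test), and 8.61% of the detected genes differed by more. Mir218-1 was lower in replicate 1 by a log2 ratio of −0.47 (−0.72 to −0.21, adjusted p = 0.000572 by the same exact test), a size that 39.4% of the detected genes exceeded. Its partner Mir218-2 had a log2 ratio of 0.18 (0.08 to 0.27). The miR-128 genes moved together, at 0.12 (0.10 to 0.15) for Mir128-1 and 0.13 (0.08 to 0.18) for Mir128-2. Both are smaller than the difference of at least 77.5% of the detected genes.

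The remaining genes were nearly level between the libraries. The direction for Mir138-1 and Mir129-2, and the call for Mir138-2, depend on the scaling. Mir138-1 had a log2 ratio of −0.05 (exact 95% interval −0.09 to −0.02) and Mir138-2 of −0.10 (−0.14 to −0.07). Under TMM scaling the value for Mir138-1 turned to 0.02 and that for Mir138-2 shrank to −0.03, and neither was called. Mir129-2 had a log2 ratio of −0.00395 (−0.04 to 0.03) with an adjusted p of 0.917 by the exact test, and 99.3% of the detected genes differed by more. It turned to 0.07 under TMM scaling and was then called higher.

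**Figure D5:**
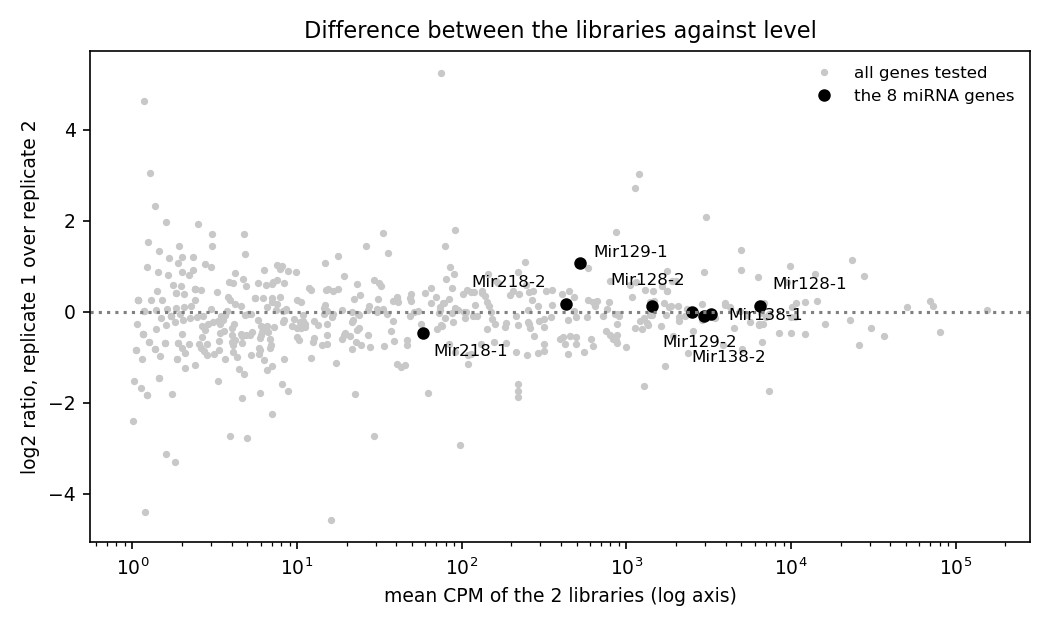
Log2 ratio of replicate 1 over replicate 2 (y axis) against the mean CPM of both libraries (x axis, log) for the 522 genes tested (grey) and the 8 miRNA genes (black). Mir129-1 lies at 1.07 and Mir218-1 at −0.47, and the other 6 lie between −0.10 and 0.18.

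Marker miRNAs of other cells were measured beside these differences. Of all 522 genes tested, 22.8% were called higher in replicate 1 and 28.2% lower, which is the background for the calls given with each list. The choroid plexus and ependyma list (7 genes, led by Mir204, Mir34c and Mir34b) reached a sum of 9225 CPM in the replicate 1 library, against 3149 CPM in that of replicate 2, with 3 of 5 tested members called higher in replicate 1, 1 lower and Mir449b at 0 in both. The oligodendrocyte list (4 genes, led by Mir219a-2, Mir338 and Mir219a-1) had sums of 5817 CPM (replicate 1) and 8786 CPM (replicate 2), with 2 of 3 tested members lower in replicate 1 and Mir219b at 0 in both. Most of the difference between these sums came from Mir219a-2, at 3630 CPM (replicate 1) and 6444 CPM (replicate 2). Mir338, the other gene called lower, had a log2 ratio of −0.10. That is about the size seen for Mir138-2, whose call depends on the scaling. The hindbrain and spinal cord list (6 genes of the Hox clusters, led by Mir10a, Mir10b and Mir615) had sums of 20.7 CPM (replicate 1) and 44.6 CPM (replicate 2), with 3 of 3 tested members lower in replicate 1 and Mir196a-1 at 0 in both. In the hindbrain list, 1 gene reached 10 CPM in both libraries. Mir129-1 was higher in replicate 1, as were the sums of the choroid plexus list and of the microglia and neuron marker lists given below. The neuron marker sum was higher mainly through 1 gene, Mir132. Mir218-1 was lower in replicate 1, as were the sums of the oligodendrocyte, hindbrain and endothelial lists. With 2 libraries every gene or list that differs goes 1 of these 2 ways, so no list is singled out. The labels also link a different version of the adapter-trimming document for each library. The part of these cells, or of the trimming, in either difference was not tested, and fewer cells of a type cannot be told apart from less RNA per cell in tissue. The microglia and leukocyte list (6 genes, led by Mir150, Mir146 and Mir155) had sums of 2935 CPM (replicate 1) and 2632 CPM (replicate 2), with 3 of 6 called higher in replicate 1 and 3 not called. The endothelial and mural list (Mir126a, Mir143 and Mir145a) had sums of 8456 CPM (replicate 1) and 8769 CPM (replicate 2), with 2 higher and 1 lower in replicate 1.

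Other neuron-enriched miRNA genes give the surroundings of the 4 pairs. Of 18 such genes, 13 reached 10 CPM in both libraries. Of 17 tested, 7 were higher in replicate 1, 5 were lower and 5 were not called, with a median log2 ratio of 0.04. Over all 522 genes tested, 22.8% were called higher in replicate 1 and 28.2% lower. The list was led by Mir139 with 154950 ± 2333 CPM, Mir132 with 23338 ± 12352 CPM and Mir485 with 2531 ± 514 CPM (SD, n = 2 each). Mir128-1 and both miR-138 genes thus stood below Mir132 and above Mir485, and Mir129-2 stood just below Mir485, though the range of Mir485 over the libraries overlapped those of Mir138-2 and Mir129-2. For the 4 pairs, shared-arm reads aligned to more than 1 place are left out, so this is an order of counted levels only. The 6 genes kept as neuron markers, all in this list and led by Mir139, Mir132 and Mir137, made up 190688 CPM of the replicate 1 library and 170090 CPM of the replicate 2 library. Most of this difference came from Mir132, at 32072 CPM (replicate 1) and 14605 CPM (replicate 2). Of 5 genes tested in this marker list, 2 were called higher in replicate 1, 1 lower and 2 not called, with a median log2 ratio of 0.03. Within that list, the 3 genes of miR-124, which share a mature arm, had 2 to 6 counts in replicate 1 and 0 to 8 in replicate 2.

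The genes whose levels over both libraries were nearest to the higher locus of each pair were found by their distance in log2(CPM + 1). Nearest to Mir128-1 were Mir541 (distance 0.1199) and Mir26b (0.128). Nearest to Mir138-1 were Mir361 (0.112) and Mir320 (0.277), and nearest to Mir129-2 were Mir484 (0.149) and the oligodendrocyte gene Mir338 (0.213). Nearest to Mir218-2 were Mir664 (0.0431) and Mir501 (0.192). With 2 libraries this likeness is one of level only.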

How the data were processed

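Small RNA of 2 hippocampus libraries was measured. The deposited values are raw read counts per miRNA gene, 1 table per library with 3 count columns and 4 summary rows, placed on mm10 with GENCODE M21 per the file headers; for the aligner and the counter, the sources used here name none. The labels link a different adapter-trimming document for each library. From the sums, the columns were read as unstranded counts, counts on the gene's own strand (used here) and counts on the other strand. Summary rows, including 15.1% and 11.4% of reads unaligned in replicates 1 and 2 and 2.92% and 3.00% outside miRNA genes, stayed out of library sizes. CPM was computed over all gene rows.

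Libraries were compared by an exact two-sided binomial test with Benjamini-Hochberg adjustment over 522 genes. The test was tried first on simulated data, which held counting error and no further spread between libraries. Neither edgeR's quasi-likelihood test nor that of DESeq2 could be fitted to single libraries. Log2 ratios have 0.5 counts added, and intervals are exact (Clopper-Pearson, or conditional for odds ratios). Hosts and positions are from M21, sequences from RefSeq. The 8 genes and all lists were chosen with earlier results of these data known. The genes named were the 8 genes, their hosts, the 2 nearest in level, the 3 highest of each list and the 3 highest two-locus names; others named (Mir7002, Mir670, Gm23630, Mir129b, the miR-124 genes, list members at 0, Mirlet7f, Mir181a and neighbouring genes) were added after their values were seen. Software was Python 3.11.15, numpy 2.4.6, pandas 2.3.3, matplotlib 3.10.9, scipy 1.17.1, edgeR 4.0.16 (TMM) and DESeq2 1.42.0 (size factors) under R 4.3.3. Alternatives were other scalings, count minimums, added counts, the count column and single libraries.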

Additional observations from a re-analysis of the deposited data

How the results depend on the processing

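Of 142 recomputed values, 118 were counted as unchanged. Levels and locus ratios had to stay within the spread between the libraries, and odds ratios within their main interval. With 2 libraries, leaving 1 out always keeps a level or locus ratio within that spread. The count of called genes had to stay within a set fold of the main count. Ratios of the libraries had to keep their call and, where called, their direction, with no limit on size. Mir129-2 counted without regard to strand, at a log2 ratio of −1.24, is therefore among the unchanged. The added count does not enter the exact test, so changing it could not change a call. The 118 thus include values that could not have moved, and their number is no measure of robustness. Counted without regard to strand, the locus ratio of miR-129 was 8.25 (log2) with an odds ratio of 5.29, because Mir129-2 then had 1.79 CPM. In that column the levels of Mir128-1, Mir128-2, Mir138-1 and Mir138-2 were 6903, 1546, 3516 and 3172 CPM. Their counts were the same in both columns, and only the sum over all genes was smaller. Per base of hairpin, a setting chosen after seeing the data, the log2 locus ratio was 2.28 for miR-128 and −0.33 for miR-138. The log2 ratio of replicate 1 to replicate 2 was 0.0688 for Mir129-2 (called), 0.0196 for Mir138-1 and −0.0280 for Mir138-2 (neither called) under TMM. Under DESeq2 size factors it was 0.0720, 0.0228 and −0.0248 with the same calls. Over all reads of the library it was −0.0662 for Mir129-2, which was then called lower. These scalings shift every log2 ratio by 0.07, 0.08 and −0.06. Over all reads the 8 levels, in the order of the pairs, were 2512, 562, 204, 972, 1281, 1156, 22.8 and 167 CPM, since more reads stand in the denominator. The count of genes called between the libraries was 266 and ranged from 255 to 275 over all alternatives. Of the 266, 119 were higher in replicate 1 and 147 lower. This balance turned round to 135 higher and 123 lower under TMM, and to 135 and 122 under DESeq2 size factors. Without replicate 1 or without replicate 2, the log2 locus ratios ranged from 2.157 to 2.161 (miR-128), −2.87 to −1.80 (miR-129), 0.13 to 0.17 (miR-138) and −3.21 to −2.57 (miR-218). With 1 library left, the comparison of libraries could not be fitted. No paired analysis was possible because there was 1 group. Depth limits Mir218-1 most, at 207 and 340 counts.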
